A study of Homo sapiens with 26 samples.

Results

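MYC and the other members of the MAX network were followed on 26 Affymetrix HG-U133 Plus 2.0 arrays from MDA-MB-468, an established line of triple-negative, basal-like breast cancer cells. The network was taken as 10 genes (MYC, MYCN, MYCL, MAX, MXD1, MXD3, MXD4, MXI1, MNT and MLX) out of 19775 genes with a probe set of their own. For 9 of the 10 a probe set assigned to that gene alone was present. The probe sets of MXD4 were assigned to MIR4800 as well, so MXD4 has no value here. Where a gene had several probe sets of its own, the one brightest on average was used. The others are given beside it, singly or as a range, except 214058_at of MYCL and 206877_at of MXD1. The study comprised an antagonism experiment of 8 arrays, in which Notch signalling was blocked, and an agonism experiment of 18 arrays, in which it was blocked and then released or stimulated.

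In the antagonism experiment cells had grown for 40 h and were harvested 24 h after treatment. The 3 control arrays came from cells given the control antibody anti-gD IgG at 10 µg/ml with 0.05% DMSO, the solvent. The 3 DAPT arrays came from cells given the same IgG with DAPT at 5 µM, and the 2 A4 arrays from cells given the antibody anti-N3.A4 at 10 µg/ml with 0.05% DMSO. DAPT inhibits gamma-secretase, the protease that releases the active fragment of all Notch receptors and also cuts other membrane proteins, and anti-N3.A4 is directed at NOTCH3. In the agonism experiment, with 3 arrays in each of 6 groups, all plates but the DMSO plate were first held in 5 µM DAPT for 16 h, and every plate then spent 2 h in medium without drug. The DMSO group then received 0.05% DMSO again and the DAPT group 5 µM DAPT again, both renewed at 22 h. The other 4 groups received control IgG at 20 µg/ml, the agonist antibody anti-N3.A13 at 20 µg/ml, beads coated with JAG1-Fc (the Notch ligand JAG1 fused to an antibody Fc part) or beads coated with Fc alone. All arrays used here were from cells harvested at 24 h. The cells of the 4 washout groups, called IgG, A13, JAG1 and Fc, had therefore all been through DAPT, and the DMSO cells had not. No antibody or beads are listed for the DMSO and DAPT groups. In comparisons of a washout group with either, the difference in DAPT and the antibody or beads added cannot be told apart. The agonism plates were seeded more densely than the antagonism plates. All groups are of 1 cell line, and whether replicate arrays stem from separate cultures is not stated, so p-values measure only the spread between these arrays, which may be technical.

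MYC is a transcription factor that binds DNA only as a dimer with MAX, mostly at the E-box CACGTG, and drives genes of ribosome production, nucleotide synthesis and cell cycle entry. MYCN and MYCL are its paralogs. MXD1, MXD3, MXD4, MXI1 and MNT compete with MYC for MAX and recruit SIN3 corepressors to the same sites. MLX pairs with some MXD proteins, with MNT and with the glucose-responsive factors MLXIP and MLXIPL, which links the network to metabolism. MYC is a direct target of Notch in T cell leukaemia and in breast cancer.

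To show where these proteins could meet their own genes, the E-box letters CACGTG were searched for on both strands in the 250 bases before each start site in RefSeq promoters of GRCh38.p14. Of the members, 9 had a promoter there (all but MYC), and 3 of these held a CACGTG (MXD4, MNT and MLX), or 33.3% of these genes, where 7.73% of all genes with a promoter did. Of the genes activated by MYC on a list described below, 11 of 29 with a promoter held one, or 37.9%. They were ODC1, SRM, HSPD1, PPAT, SLC7A5, HK2, EIF4E, TERT, LDHA, CDK4 and APEX1. The letters TGGGAA, the core of the sequence bound by the Notch effector RBPJ, were found before MYCN and MXI1, 22.2% of these genes, and before 24.6% of all genes. A match describes the letters and is no evidence of binding. The activated genes shown are the 5 of the 11 that rose with A13 over IgG, picked for that rise. Of all 33 measured genes of the list, 17 were called higher there. Whether an E-box went with a rise was not tested. The windows of the 2 measured members with an E-box, of the 2 members with TGGGAA, and of the 5 activated genes with an E-box that rose with A13 follow here, with the motif in capitals (TTCCCA is TGGGAA read on the other strand). They lie at chr17:2401221-2401280, minus strand (MNT), chr17:42567023-42567082, plus strand (MLX), chr2:15940302-15940361, plus strand (MYCN), chr10:110225887-110225946, plus strand (MXI1, the most downstream of its 3 start sites), chr2:10448013-10448068, minus strand (ODC1), chr1:11060185-11060244, minus strand (SRM), chr2:197500330-197500389, minus strand (HSPD1), chr4:56435765-56435824, minus strand (PPAT) and chr16:87869605-87869664, minus strand (SLC7A5).
MNT: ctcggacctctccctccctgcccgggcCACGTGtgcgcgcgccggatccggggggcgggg
MLX: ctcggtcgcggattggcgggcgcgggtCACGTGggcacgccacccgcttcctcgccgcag
MYCN: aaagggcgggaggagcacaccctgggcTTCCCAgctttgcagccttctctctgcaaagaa
MXI1: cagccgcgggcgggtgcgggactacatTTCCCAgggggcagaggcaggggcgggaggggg
ODC1: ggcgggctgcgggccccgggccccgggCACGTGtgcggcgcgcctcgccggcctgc
SRM: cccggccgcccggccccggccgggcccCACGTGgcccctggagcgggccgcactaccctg
HSPD1: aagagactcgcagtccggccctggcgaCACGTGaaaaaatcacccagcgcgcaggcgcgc
PPAT: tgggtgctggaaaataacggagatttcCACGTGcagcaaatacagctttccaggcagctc
SLC7A5: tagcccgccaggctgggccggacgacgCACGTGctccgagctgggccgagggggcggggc

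Values are log2 of the deposited array intensities, so a difference of 1 is a doubling, and levels are compared for 1 gene at a time and within 1 experiment. The median array value was 7.60 to 7.65 in the antagonism experiment and 6.84 to 6.88 in the agonism experiment. The SD of the gene-wise difference between arrays of 1 group was 0.138 to 0.194 in the agonism experiment and 0.129 to 0.32 in the antagonism experiment, where control array 2 stood apart from the other controls. The basal and epithelial genes EGFR, KRT5, KRT18, CDH1 and EPCAM had means between 11.46 and 14.10, and the leukocyte gene PTPRC and the progesterone receptor gene PGR had means between 4.81 and 6.81, under the array medians. KRT14 at 9.03 and 9.57, the estrogen receptor gene ESR1 at 7.90 and 7.99, ERBB2, and the probe sets of PECAM1 and COL1A1, markers of endothelium and fibroblasts, lay above those medians. In bulk RNA, fewer cells expressing a gene and less of its RNA per cell cannot be told apart.

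MYC fell under both Notch inhibitors in the antagonism experiment. On the control arrays its level was 10.78, 10.95 and 11.09, on the DAPT arrays 9.45, 9.69 and 9.65, and on the A4 arrays 9.74 and 9.83. All 5 inhibitor arrays lay below all 3 controls. With DAPT the level fell by 1.34 ± 0.10 (SE; a 2.54-fold drop; 3 arrays against 3), with an adjusted p of 0.00216 in limma, Benjamini-Hochberg adjusted over all genes. With A4 it fell by 1.15 ± 0.11 (a 2.23-fold drop; 2 arrays against 3; limma adjusted p = 0.0134). By p-value, MYC ranked 2 among all 19775 genes with DAPT and 3 with A4. Of all genes, 0.354% passed the 0.05 threshold with DAPT (0.202% higher and 0.152% lower) and 0.101% with A4 (0.0455% higher and 0.0556% lower). The A4 call was lost without either A4 array (-1.10 without array 1 and -1.20 without array 2) and when the control and A4 arrays were fitted alone (limma adjusted p = 0.107). Without control array 2 the MYC changes were -1.34 with DAPT and -1.15 with A4, both called. The genes called over the whole array then rose from 70 to 1198 with DAPT and from 20 to 96 with A4.

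The A4 arrays lay slightly above the DAPT arrays for MYC. The difference was 0.19 ± 0.11, with a 95% interval from -0.06 to 0.43 and a limma adjusted p of 0.659. In that comparison 0% of all genes passed the threshold and 1628 had an unadjusted p under 0.05.

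None of the other 8 measured members was called in the antagonism experiment. With DAPT their changes ran from -0.14 (MXD3, a MAX-binding repressor) to 0.17 (MXD1), and with A4 from -0.13 (MXI1) to 0.27 (MXD1). MXD1 was at 9.49, 9.11 and 9.61 on the control arrays, at 9.51, 9.66 and 9.55 with DAPT, and at 9.65 and 9.69 with A4. Control array 2 was the low one, and without it the MXD1 change with A4 was 0.12. MYCN spread most among the controls, at 8.36, 7.43 and 8.54, again with control array 2 low. Its change with DAPT was 0.02 ± 0.25 with all arrays and -0.32 ± 0.12 without that array (limma adjusted p = 0.123). The number of arrays and the spread of the controls limit what could be detected here.

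**Figure D1:**
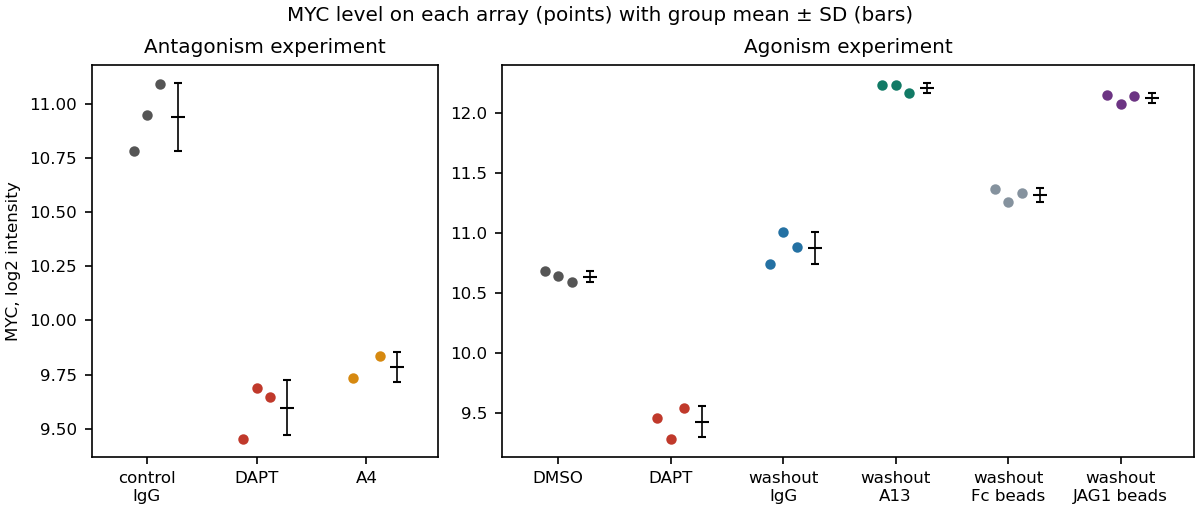
MYC level as log2 intensity (vertical axes, separate for the 2 experiments) on each array (points) by treatment group (horizontal axes), with the group mean and SD as bars. The antagonism controls lie between 10.78 and 11.09 and all inhibitor arrays under 9.84; in the agonism experiment the DAPT arrays lie lowest and the A13 and JAG1 arrays highest.

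In the agonism experiment MYC took 6 levels that differed by up to 2.79. It was 9.46, 9.28 and 9.54 on the DAPT arrays and 10.68, 10.64 and 10.59 on the DMSO arrays. After washout it was 10.74, 11.01 and 10.89 with IgG and 11.36, 11.26 and 11.33 with Fc beads. It reached 12.15, 12.07 and 12.14 with JAG1 beads and 12.23, 12.23 and 12.16 with A13. No array of any group overlapped those of the next group in this order, although JAG1 and A13 did not differ by the test.

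Continued DAPT lowered MYC by 1.21 ± 0.07 against DMSO (a 2.31-fold drop; limma adjusted p = 2.66e-08), where 20.7% of all genes were called. The DAPT effect on MYC differed between the experiments by -0.13 ± 0.12 (95% interval -0.37 to 0.11; limma adjusted p = 0.559). Of all genes, 6.12% (1211) were called for that difference, but 326 genes without DMSO array 3, 2828 without control array 2, and 72 in a fit of those groups alone. Washout with IgG gave a level 1.45 ± 0.07 above continued DAPT (2.74-fold; limma adjusted p = 7.59e-10), where 9.77% of all genes were called. The IgG level was also above that of DMSO, by 0.24 ± 0.07 (limma adjusted p = 0.0159), a small step among the 30.6% of genes called there. This step was not called without DMSO array 3 (0.22) or IgG array 2 (0.18), nor in a fit of those 2 groups alone (limma adjusted p = 0.0566).

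Both agonists raised MYC above their own controls. A13 exceeded IgG by 1.33 ± 0.07 (2.52-fold; limma adjusted p = 5.78e-10; 14.7% of all genes called). JAG1 beads exceeded Fc beads by 0.80 ± 0.07 (1.75-fold; limma adjusted p = 9.92e-07; 8.11% of all genes called). Fc beads themselves exceeded IgG by 0.44 ± 0.07 (1.36-fold; limma adjusted p = 0.0026), where 2.08% of all genes were called (1.64% higher and 0.44% lower). This all-gene count of 411 fell to 141 without IgG array 1, 144 without Fc array 1, 249 without IgG array 3, 239 without Fc array 3 and 61 in a fit of those 2 groups alone. The MYC call was lost in that last fit (limma adjusted p = 0.0733). The A13 comparison and the Fc comparison share the IgG arrays, and both bead comparisons share the Fc arrays.

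Taken over its own control, the A13 effect on MYC was larger than the JAG1 effect by 0.53 ± 0.10 (limma adjusted p = 0.0419), where 0.182% of all genes were called. This call was lost without any of 11 of the 12 arrays of these groups, one at a time, and under 4 other settings (limma adjusted p from 0.0581 to 0.0979). The end levels of the agonists lay close together, with JAG1 below A13 by 0.09 ± 0.07 (95% interval -0.24 to 0.06; limma adjusted p = 0.554). The antibody was given in solution at a stated concentration and the ligand on beads, so the doses cannot be matched. Relative to the DMSO cells, which had never been in DAPT, A13 brought MYC 1.58 ± 0.07 higher (2.98-fold; limma adjusted p = 4.41e-11; 30.9% of all genes called).

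The 4 Notch genes used as a reference (the receptor NOTCH3 and the targets HES1, NRARP and HEY1) were all called higher with A13 than with IgG, by 0.70, 0.33, 1.90 and 0.50 in that order. Of all genes, 5.68% were called higher there. NRARP, a feedback inhibitor, had the larger A13 effect as well, by 0.89 ± 0.10 over that of JAG1 (limma adjusted p = 0.000213). With DAPT in the antagonism experiment NOTCH3 fell by 0.63 and HES1 by 0.50, while NRARP (-0.24) and HEY1 (-0.08) were not called. With A4, NOTCH3 fell by 0.81 and HES1 by 0.65. In both antagonist comparisons these calls were lost, to 0 of the 4 genes, without control array 1 or 3, without any 1 of the DAPT or A4 arrays compared, in fits of the compared groups alone and without _x_at and _s_at probe sets. The count was 2 without control array 2 and 1 under median centring or with the median of a gene's probe sets.

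MAX, the partner shared by every dimer of MYC, varied little. Its main probe set was at 10.35, 10.48 and 10.24 on the DMSO arrays and between 10.42 and 10.73 on all other agonism arrays. It was called higher than DMSO with IgG, by 0.20 ± 0.07 (limma adjusted p = 0.0357), and with A13, by 0.24 ± 0.07 (limma adjusted p = 0.0106). The same held for Fc beads, by 0.27 ± 0.07 (limma adjusted p = 0.00395), and JAG1 beads, by 0.27 ± 0.07 (limma adjusted p = 0.00351). Of all genes, 36% were called for Fc beads against DMSO and 40% for JAG1 beads. The 5 MAX probe sets did not move together. The dimmest, 214108_at, went the other way, at -0.38 for A13 against DMSO and called, and the other 3 lay between -0.14 and 0.05 there, none called. The rise of MAX with A13 thus rests on 1 of its 5 probe sets, and the values given for the bead groups are from that probe set alone. The call with A13 was lost without DMSO array 3 (0.18), and that with IgG was kept without 2 of the 6 arrays, one at a time. MAX was not called in any comparison of an agonist with its own control (0.04 for A13, 0.00 for JAG1).

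The MYC paralogs differed from each other. MYCN was at 7.31, 7.02 and 7.32 on the DAPT arrays and 7.33, 7.57 and 7.36 on the DMSO arrays. It was at 7.77, 7.91 and 8.18 with IgG, 7.87, 7.84 and 7.99 with A13, 8.46, 8.13 and 8.42 with Fc beads and 8.36, 8.12 and 8.22 with JAG1 beads. All 12 washout arrays lay above all 6 others. The share of all genes that separate in this way was not counted. Between a washout group and DMSO, 30.6% (IgG) to 40% (JAG1) of all genes were called. IgG exceeded DAPT by 0.73 ± 0.11 (1.66-fold; limma adjusted p = 0.000347) and DMSO by 0.53 ± 0.11 (limma adjusted p = 0.00145). Neither agonist moved MYCN beyond its own control, with -0.05 ± 0.11 for A13 and -0.10 ± 0.11 for JAG1. Of its 10 probe sets, the main one, 209757_s_at, was the only one called for IgG against DAPT, and the other 9 lay between -0.06 and 0.34. Besides it, 234376_at was called for IgG against DMSO (0.23) and 234872_at for A13 against DMSO (0.30). MYCL, a paralog best known in small cell lung cancer, was called in no comparison of either experiment on its main probe set. The arrays lay between 6.83 and 7.18 in the agonism experiment. The changes of its second probe set are not given, and that probe set had r = 0.148 with the main one there. The MYCL mean lay at percentile 35.9 of all genes in the agonism experiment, and that of MYCN at 50.1. No detection calls were used, so whether either gene is expressed was not tested.

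Among the repressors, MXI1 followed MYC most closely over the agonism arrays. MXI1 was at 10.27, 10.25 and 10.23 with DAPT, at 10.33, 10.26 and 10.43 with DMSO, at 10.52, 10.43 and 10.50 with IgG, and at 10.74, 10.69 and 10.54 with Fc beads. It was at 10.84, 10.82 and 10.72 with A13 and at 10.83, 10.89 and 10.93 with JAG1 beads. Every A13 array lay above every IgG array, and every JAG1 array above every Fc array. A13 exceeded IgG by 0.31 ± 0.06 (1.24-fold; limma adjusted p = 0.00224) and DMSO by 0.45 ± 0.06 (limma adjusted p = 2.23e-05). JAG1 exceeded Fc by 0.22 ± 0.06 (limma adjusted p = 0.0344), a call kept without 2 of the 6 arrays, one at a time, and lost under 4 other settings. IgG exceeded DAPT by 0.23 ± 0.06 (limma adjusted p = 0.0244), kept without 1 of the 6 arrays. MXI1 was not lower with DAPT than with DMSO by the test (-0.09, limma adjusted p = 0.384), nor lower with either inhibitor in the antagonism experiment (0.02 with DAPT, -0.13 with A4).

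MXD1, which replaces MYC on MAX when cells differentiate, ran in the opposite direction in part. It was at 8.72, 8.67 and 8.67 with DMSO and at 9.02, 8.96 and 8.99 with DAPT. It was at 8.74, 8.79 and 8.83 with IgG and at 8.57, 8.54 and 8.57 with A13, below every other array of the experiment. With beads it was higher, at 9.05, 8.91 and 8.95 with Fc and 8.86, 8.79 and 8.95 with JAG1. DAPT exceeded DMSO by 0.30 ± 0.06 (limma adjusted p = 0.000894), IgG fell below DAPT by 0.20 ± 0.06 (limma adjusted p = 0.0258), and A13 fell below IgG by 0.22 ± 0.06 (limma adjusted p = 0.00979). The IgG call was kept without 2 of the 6 arrays, one at a time. JAG1 and Fc did not differ by the test (-0.10 ± 0.06, limma adjusted p = 0.32). MXD1 was the only member called between the agonists, higher with JAG1 than with A13 by 0.31 ± 0.06 (limma adjusted p = 0.00268; 6.37% of all genes called). The probe set 226275_at had the signs of the main one for DAPT against DMSO (0.14), IgG against DAPT (-0.25) and A13 against IgG (-0.26), none called. With the median of the 3 MXD1 probe sets all 3 calls were lost (limma adjusted p from 0.0521 to 0.263).

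MNT, the most widely expressed of the MAX-binding repressors, was higher in the washout groups and did not differ by the test between agonists and their controls. It was at 8.20, 8.39 and 8.30 with DMSO and 8.23, 8.39 and 8.49 with DAPT. It was at 8.69, 8.75 and 8.64 with IgG, 8.67, 8.71 and 8.71 with A13, 8.93, 8.91 and 8.77 with Fc beads and 8.83, 8.87 and 9.02 with JAG1 beads. The 12 washout arrays all lay above the other 6. As for MYCN, the share of all genes that separate in this way was not counted. IgG exceeded DAPT by 0.33 ± 0.07 (limma adjusted p = 0.0085) and DMSO by 0.40 ± 0.07 (limma adjusted p = 0.000531), while A13 differed from IgG by 0.00 and JAG1 from Fc by 0.03. The call against DAPT was lost without DAPT array 1 (0.26). The second probe set, 236749_at, was not called in any comparison (0.11 for IgG against DAPT). MXD3 was called in no comparison, its agonism arrays lying between 9.95 and 10.21.

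MLX was highest with DMSO, at 11.21, 11.12 and 11.23, and lower with DAPT, at 11.02, 10.93 and 10.94. The washout arrays lay between 10.68 and 10.93. DAPT was below DMSO by 0.22 ± 0.06 (limma adjusted p = 0.0149, kept without 2 of the 6 arrays, one at a time), IgG by 0.30 ± 0.06 (limma adjusted p = 0.00107), and A13 by 0.38 ± 0.06 (limma adjusted p = 9.12e-05). The probe sets 213708_s_at and 217910_x_at had the same sign in these 3 comparisons, with -0.30 and -0.36 for A13 against DMSO, both called. The other 3 MLX probe sets lay between -0.19 and -0.003 there. With the median of a gene's probe sets the calls with DAPT (-0.07, limma adjusted p = 0.558) and IgG (-0.11, limma adjusted p = 0.264) were lost. Without _x_at and _s_at probe sets none of the 3 comparisons was called, at -0.15 with DAPT, 0.06 with IgG and -0.003 with A13. The DAPT call was also lost in a fit of its 2 groups alone (limma adjusted p = 0.0644). Agonists did not move MLX beyond their controls by the test, at -0.08 for A13 and -0.15 for JAG1.

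Ordered by mean, MXI1 ran from DAPT through DMSO, IgG, Fc and A13 to JAG1, and no step between neighbours passed the test, so the calls rest on groups further apart. MYCN ran from DAPT through DMSO, A13, IgG and JAG1 to Fc, with a call only at the step from DMSO to A13. MNT ran from DMSO through DAPT, IgG, A13 and Fc to JAG1, with a call only from DAPT to IgG, and MLX ran downward from DMSO through DAPT, IgG, Fc and A13 to JAG1, with a call only from DMSO to DAPT. MXD1 ran from A13 through DMSO, IgG, JAG1 and Fc to DAPT with no call between neighbours. Among the pairs of neighbours not yet described, 20.8% of all genes were called for JAG1 against IgG, 14.1% for Fc against A13 and 21.1% for Fc against DAPT.

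**Figure D2:**
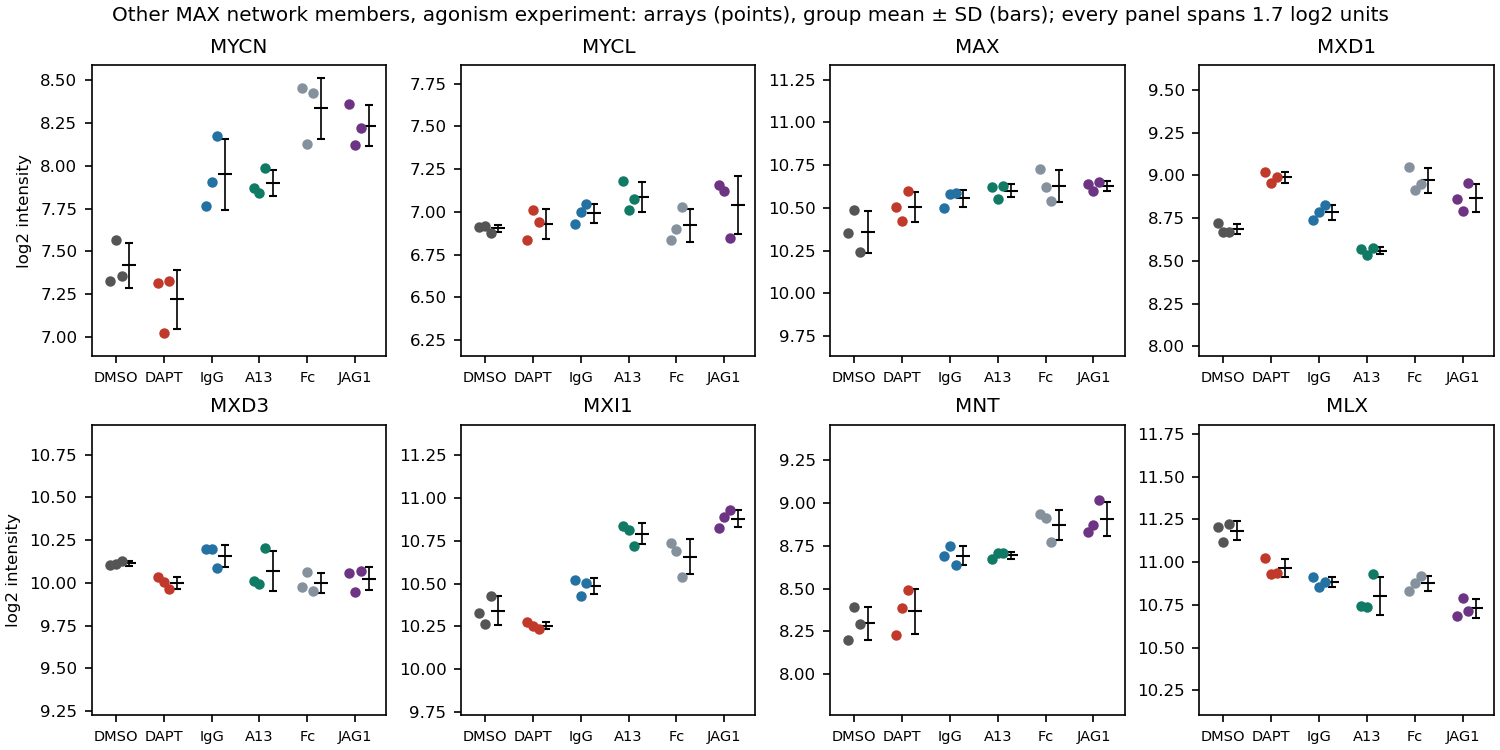
The 8 other measured members in the agonism experiment: log2 intensity (vertical axes, each spanning the same range) on each array (points) by group (horizontal axes), with group mean and SD as bars. MXI1 is highest with A13 and JAG1 beads, MXD1 is lowest with A13, MYCN and MNT separate the washout groups from DMSO and DAPT, and MLX is highest with DMSO.

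Counted over the 9 measured members, 1 was called higher and 2 lower with DAPT than with DMSO, where 12.4% and 8.31% of all genes were. With IgG against DAPT, 4 were higher and 1 lower, against 4.15% and 5.62% of all genes. With IgG against DMSO, 4 were higher and 1 lower, against 17.9% and 12.6%. With A13 against IgG, 2 were higher and 1 lower, against 5.68% and 9.02%. With JAG1 against Fc, 2 were higher and 0 lower, against 2.97% and 5.14%. With Fc against IgG, MYC alone was called, and with A13 against DMSO 5 were higher and 1 lower, against 15.7% and 15.2%. Comparisons that share a control group are not independent of each other. Each of these counts includes MYC.

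**Figure D3:**
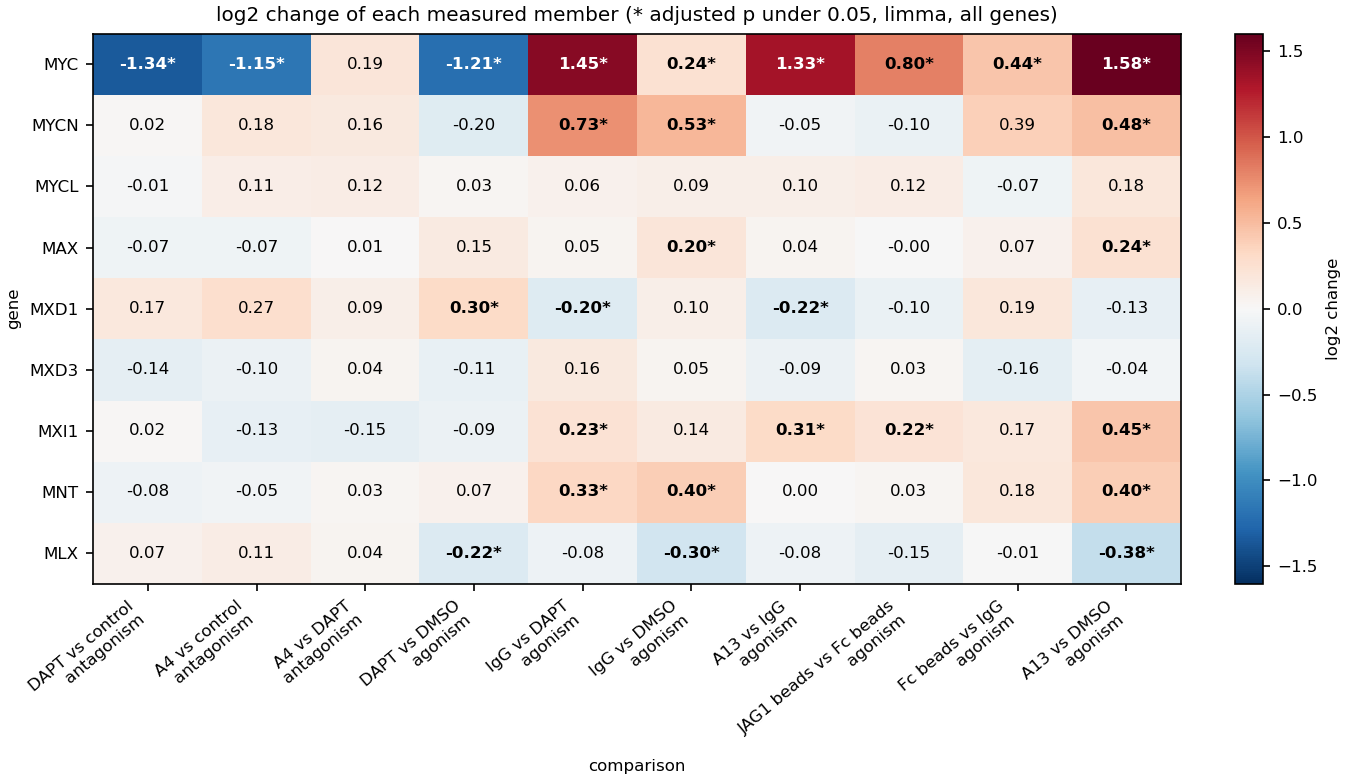
log2 change (colour, with the value printed in each cell) of the 9 measured members (rows) in 10 comparisons (columns); an asterisk marks a limma adjusted p under 0.05 over all genes. MYC is called in every column but A4 against DAPT, and the largest change of another member is 0.73, that of MYCN for IgG against DAPT.

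The partners of MLX and MAX outside the network were followed on a list of 5 genes. MGA, which pairs with MAX in a repressive complex, was higher with A13 than with DMSO (0.40). It was also called higher with A13 than with IgG (0.23), but none of the 5 genes was called there without IgG array 1 or 3 or any 1 of the A13 arrays. MLXIP was higher than DMSO with IgG (0.32) and with A13 (0.37). Against DMSO, 1 of the 5 was thus called higher with IgG and 2 with A13, where 17.9% and 15.7% of all genes were. With A13 against IgG it was 1 of 5, where 5.68% of all genes were. So few calls say little about the partners as a list. With the median of a gene's probe sets, 0 of the 5 were called against DMSO in either comparison by limma. MLXIPL and the MLXIP targets TXNIP and ARRDC4 were called in no comparison of either experiment, with TXNIP changes between -0.04 and 0.09.

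Genes activated by MYC were followed on a list of 34, of which 33 were measured, among them ODC1 and SRM of polyamine synthesis, NCL and FBL of the nucleolus and SLC7A5 of amino acid uptake. The list, like the others here, was chosen with earlier results of these data known. With DAPT in the antagonism experiment 2 were called lower and 0 higher, against the shares of all genes given above. They were SLC7A5 (-0.72) and IMPDH2, an enzyme of guanine nucleotide synthesis (-0.43). Without control array 2 the count was 5 lower and 1 higher, and without any 1 other array of these groups it was 0 or 1 lower. It was 0 when these 2 groups were fitted alone and 4 lower with a trended, robust eBayes. The list median was -0.13, where the median of all genes was 0.00. With A4, 0 of the 33 were called by limma, where 20 genes of all were called and 1836 had an unadjusted p under 0.05, and the list median was -0.16.

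In the agonism experiment 12 of the 33 were called lower with DAPT than with DMSO and 2 higher, where 8.31% and 12.4% of all genes were. NME1 (-0.52), TFAM (-0.51) and POLR1B (-0.30), a subunit of RNA polymerase I, were among the lower, and the glycolytic enzyme HK2 was higher (0.55). The list median was -0.13, against 0.02 over all genes. Without the less specific _x_at and _s_at probe sets 5 were lower, and 6 when the 2 groups were fitted alone. After washout with IgG, 14 of 33 were called higher than with DAPT and 0 lower, where 4.15% and 5.62% of all genes were. The amino acid carrier subunits SLC3A2 (0.71) and SLC7A5 (0.68), the serine pathway enzyme SHMT2 (0.60) and the cell cycle factor E2F2 (0.45) led. The median was 0.15, against 0.03 over all genes. Without DAPT array 1 the count was 7, without IgG array 2 it was 8, in a fit of the 2 groups alone 6, and without _x_at and _s_at probe sets 4.

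With A13 against IgG, 17 of 33 were called higher and 0 lower, where 5.68% and 9.02% of all genes were. The list median was 0.19, against -0.03 over all genes. E2F2 (0.60), POLR1B (0.49), ODC1 (0.41) and SLC7A5 (0.41) led. Of the genes whose E-box windows are shown above, picked for their rise, SRM was higher by 0.38, PPAT by 0.34 and HSPD1 by 0.17. The count was 11 without IgG array 1, and 9 without _x_at and _s_at probe sets. With JAG1 against Fc, 9 of 33 were called higher and 0 lower, where 2.97% and 5.14% of all genes were. E2F2 (0.43), NCL (0.31), POLR1B (0.30) and PPAT (0.27) led, with a list median of 0.15 against 0.01. The count of 9 fell to 5 without Fc array 1, Fc array 3 or JAG1 array 2, to 3 without Fc array 2, and to 1 without JAG1 array 3. It was 2 in a fit of these groups alone, 3 without _x_at and _s_at probe sets, and 14 over the genes above the median level. Whether the 2 agonists differ over the list was not tested as a list. None of the 33 was called for the difference of their effects by limma, in which 36 genes of all were called and 1173 had an unadjusted p under 0.05.

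Fc beads against IgG gave 3 higher and 2 lower of the 33, where 1.64% and 0.44% of all genes were called. SLC7A5 (0.48) and SLC3A2 (0.47) were higher, and the transferrin receptor gene TFRC was lower by 0.78. The count of higher and lower was 2 and 1 without IgG array 1 or 3 or Fc array 1 or 3. Against DMSO, IgG gave 9 higher and 3 lower, where 17.9% and 12.6% of all genes were called. A13 gave 20 higher and 3 lower, where 15.7% and 15.2% were, with a median of 0.22, and 13 and 1 without _x_at and _s_at probe sets. SLC7A5 (1.08), SLC3A2 (0.94), E2F2 (0.86) and SHMT2 (0.75) had the largest changes with A13, while EIF4E, TFAM and NME1 were the 3 lower ones (-0.32, -0.25 and -0.21).

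**Figure D4:**
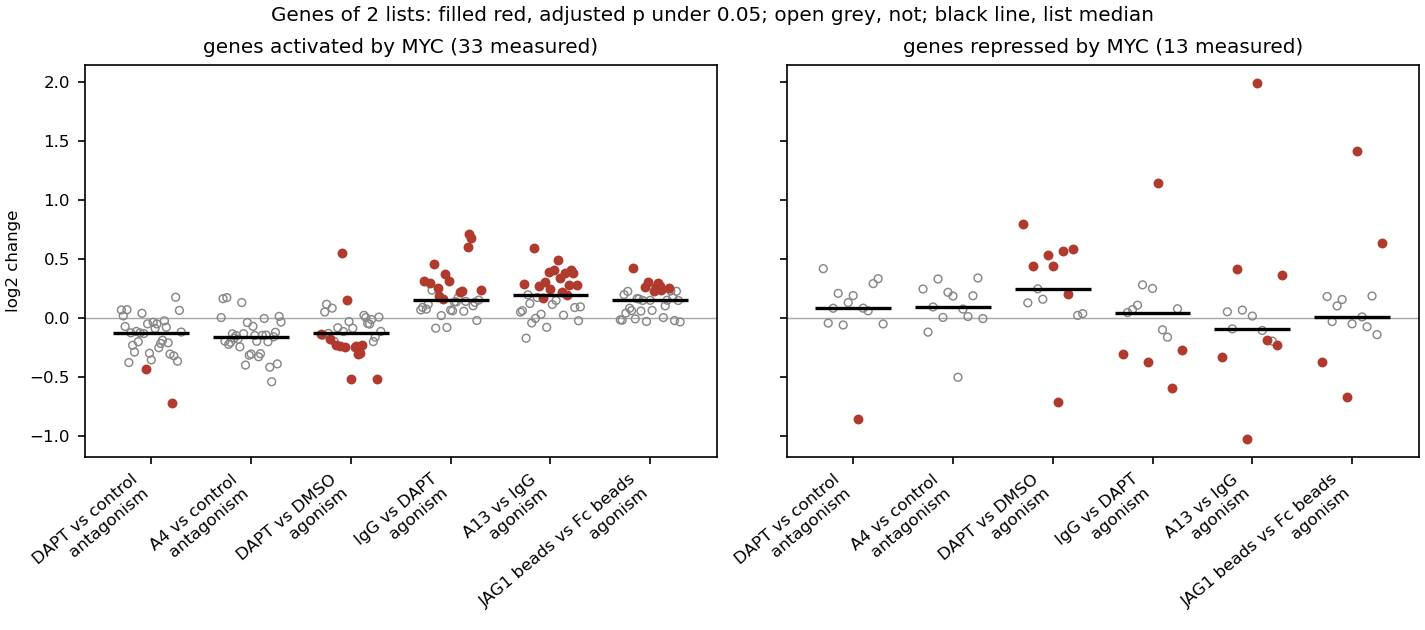
log2 change (vertical axis) of every measured gene of the lists of genes activated (left) and repressed (right) by MYC in 6 comparisons (horizontal axes); filled points have a limma adjusted p under 0.05, open points do not, and the line is the list median. Among activated genes no filled point lies below 0 for IgG against DAPT, A13 against IgG or JAG1 against Fc; GAS1 is the highest point of the repressed list with A13.

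Of 13 genes repressed by MYC, 7 were called higher with DAPT than with DMSO and 1 lower, where 12.4% and 8.31% of all genes were. The list median was 0.25, against 0.02 over all genes. CDKN1A, the cell cycle inhibitor p21, rose by 0.80, NDRG1 by 0.58, ITGA6 by 0.57 and CLU by 0.53, and GAS1 fell by 0.71. Without _x_at and _s_at probe sets the counts of higher and lower were 5 and 0. On washout with IgG against DAPT, NDRG1 (-0.59), CLU (-0.37), CDKN1A (-0.31) and THBS1 (-0.27) were lower and GAS1 was higher by 1.15. Of all genes, 5.62% were called lower and 4.15% higher there. The counts of higher and lower were 0 and 3 with the median of a gene's probe sets. They were 0 and 1 without _x_at and _s_at probe sets. With A13 against IgG, 3 were higher and 4 lower, where 5.68% and 9.02% of all genes were. The lower ones were CLU (-1.03), CDKN1A (-0.33), NDRG2 (-0.23) and ITGB1 (-0.19). The higher ones were GAS1 (1.99), CDKN2B (0.41) and THBS1 (0.37). Without A13 array 2 the counts were 2 and 2, with the median of a gene's probe sets 0 and 3, and without _x_at and _s_at probe sets 1 and 1. JAG1 against Fc gave the same signs for CLU (-0.67), CDKN1A (-0.38), GAS1 (1.42) and THBS1 (0.64), all called, where 2.97% of all genes were higher and 5.14% lower. With the median of a gene's probe sets the counts of higher and lower for JAG1 were 0 and 2. They were 0 and 1 without _x_at and _s_at probe sets, so the calls of GAS1 and THBS1 were lost in both settings. On its main probe set GAS1 moved the way MYC did, against the list's name. It was also the 1 gene of the list called with DAPT in the antagonism experiment (-0.86). No gene of the list was called lower there without either of the controls 1 and 3 or any 1 of the DAPT arrays. With IgG against DMSO 7 were higher and 1 lower, where 17.9% and 12.6% of all genes were, and with A13 against DMSO also 7 and 1, where 15.7% and 15.2% were. The counts for IgG were 5 and 0 without _x_at and _s_at probe sets.

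Genes that set the stability of the MYC protein were followed on a list of 17, with 16 measured. With DAPT against DMSO 5 were higher and 3 lower, where 12.4% and 8.31% of all genes were. USP22 (0.32), GSK3B (0.29), which marks MYC for degradation, and PPP2R5A (0.22) were higher, and CIP2A, an inhibitor of the phosphatase that destabilises MYC, was lower by 0.44. With DMSO array 1 left out the counts were 1 and 1, and with DMSO array 3 or DAPT array 3 left out 1 and 3, and 2 and 3. In a fit of the 2 groups alone they were 0 and 2. With A13 against IgG 3 were higher and 3 lower, where 5.68% and 9.02% of all genes were. The higher ones were CIP2A (0.55), the nucleolar deubiquitinase USP36 (0.36) and SKP2 (0.33), and the lower ones PPP2R5A (-0.23), TRIM32 (-0.19) and STUB1 (-0.18), with 2 and 0 called on the median of a gene's probe sets. With JAG1 against Fc 3 were higher and 0 lower, where 2.97% and 5.14% of all genes were. They were USP36 (0.29), AURKA (0.29) and SKP2 (0.24), and without JAG1 array 3 the count was 1. The ubiquitin ligase gene FBXW7 was called in no comparison, with changes between -0.03 and 0.24. None of the 16 was called by limma in the antagonism experiment, where CIP2A had changes of -0.62 with DAPT and -0.44 with A4. Protein levels were not measured.

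Of 16 measured cofactors and corepressors of MYC, RUVBL1, a chromatin remodelling ATPase, was lower with DAPT than with DMSO (-0.37) and higher with A13 than with IgG (0.29). KAT2A, an acetyltransferase, had changes of -0.22 and 0.21 in the same comparisons, both called with all arrays, and CDK9 was higher with DAPT (0.22). These 3 were the calls with DAPT, 1 higher and 2 lower of 16, where 12.4% and 8.31% of all genes were called. So few calls are near the shares of all genes. Without DMSO array 1 or 3 the count was 0 higher and 1 lower, and without DMSO array 2 it was 3 and 3. For A13 against IgG 2 were higher and 0 lower, where 5.68% and 9.02% of all genes were. That count of higher genes fell to 1 without IgG array 1 or 2 or A13 array 2 or 3. It was also 1 under median centring and in a fit of the groups alone, and 0 without _x_at and _s_at probe sets. It rose to 4 higher and 1 lower after quantile normalization. JAG1 against Fc gave 0 calls of 16 by limma, and Fc against IgG 0, as did both antagonist comparisons. With A13 against DMSO 8 were higher and 1 lower, where 15.7% and 15.2% of all genes were, with TRRAP (0.41), SIN3A (0.32) and HCFC1 (0.32) the highest. The counts were 5 and 0 without _x_at and _s_at probe sets and 4 and 1 with the median of a gene's probe sets.

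The genes whose level followed that of MYC most closely over the 18 agonism arrays were ranked by Pearson r, as a description. The arrays share their 6 groups and their DAPT pretreatment, so r mostly reflects the group means. NRP1, a coreceptor of semaphorins and VEGF, had r = 0.992, EPB41L4A-AS1 0.991, IER5 0.988, PLCG2 0.987, SNHG17 0.980 and EXOSC5 0.980. Over the 8 antagonism arrays their r was 0.918, 0.863, 0.941, 0.531, 0.803 and 0.980. EPB41L4A-AS1 and SNHG17 are noncoding transcripts, SNHG17 being a snoRNA host, and EXOSC5 is a subunit of the RNA exosome. NRP1 rose by 1.06 ± 0.09 with A13 over IgG and by 0.66 ± 0.09 with JAG1 over Fc, and fell by 1.23 ± 0.09 with DAPT against DMSO, all called. Of all genes, 5.68% and 2.97% were called higher and 8.31% lower in these comparisons. NRP1 was picked for its r over the same agonism arrays, so these changes had to follow those of MYC and are no separate result. In the antagonism experiment it fell by 1.25 ± 0.17 with DAPT, called, and its change with A4 was -0.96 ± 0.19, not called. IER5, an immediate early gene, had a called drop with both inhibitors there (-0.71 and -0.90).

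The lowest r were those of LYPD3 (-0.991), OAS1 (-0.989), an interferon-induced enzyme, and S100A16 (-0.983). Over the antagonism arrays r was -0.954, -0.351 and 0.063, so for OAS1 and S100A16 the opposition to MYC was seen in the agonism arrays. OAS1 rose by 0.55 ± 0.06 with DAPT against DMSO and its change with DAPT in the antagonism experiment was 0.16 ± 0.09, not called, with a called difference of -0.40 ± 0.10 between the experiments. OAS1 was picked on the agonism arrays, so its rise there, and in part this difference, follow from the pick. Of all genes, 6.12% were called for the difference. Among the members, MXI1 had r = 0.920 with MYC and ranked 163 of 19774 genes. MYCN had 0.752 and MNT 0.715, MLX -0.608 and MXD1 -0.454. Over the 8 antagonism arrays the r of MXI1 was 0.212, below those of MXD3 (0.570) and MNT (0.513).

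**Figure D5:**
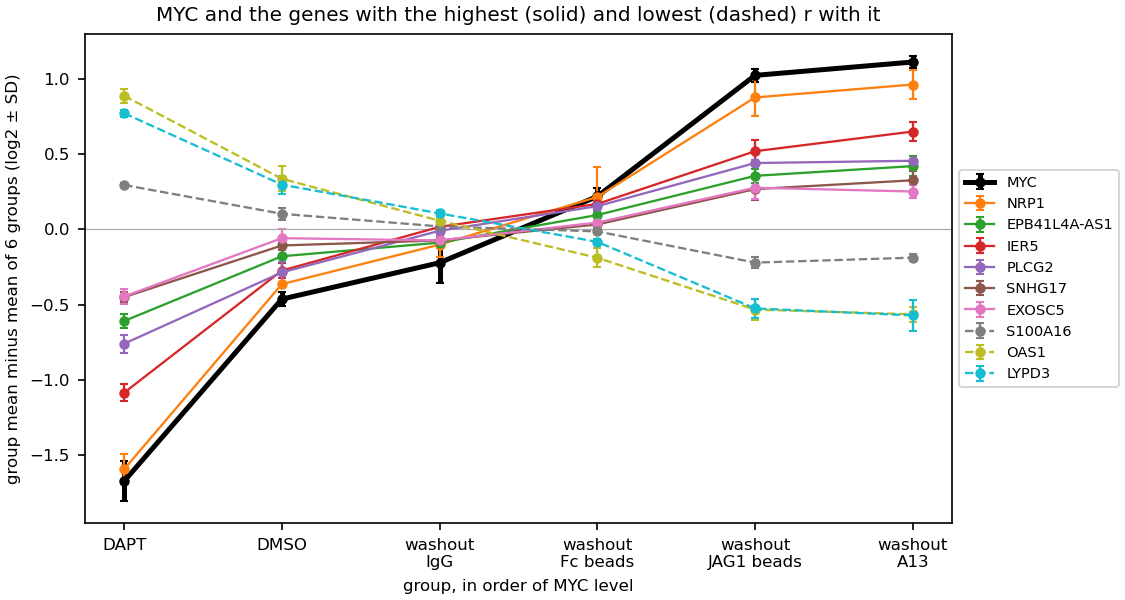
Group means of log2 intensity, each gene set relative to its mean over the 6 groups (vertical axis, with SD over 3 arrays as bars), for MYC and the genes with the highest (solid) and lowest (dashed) r with it, in the agonism groups ordered by MYC level (horizontal axis). MYC spans the widest range of these genes, 2.79 from DAPT to A13, and NRP1 the next widest.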

How the data were processed

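RNA extraction, cRNA synthesis and labelling followed the array maker's methods, per the labels' protocols. The deposited table holds 1 linear intensity per probe set and array, and the submitters' processing notes name RMA and R 2.10, without roles. No detection calls were used. A log2 scale had been planned for, so the deposited intensities, from 7.12 to 32597, were converted to log2 and the planned test kept. Of 54675 probe sets, 41097 named 1 gene, 1801 several and 11777 none (62 of them controls). Of the first, 41043 matched the reference gene table, and 0 symbols changed. Linear models were run in limma 3.58.1 under R 4.3.3, with moderated statistics from eBayes and all groups of an experiment in 1 fit (residual degrees of freedom 5 and 12, and 17 over both), adjusted by Benjamini-Hochberg over 19775 genes at 0.05. Errors of changes are SE. The fit was tested on simulated data. Arrays of a group are numbered in listing order. Where arrays of groups are said not to overlap, the share of all genes with such a separation was not counted. Array medians differed between the experiments, so levels were not compared across them.

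The members and gene lists were chosen with earlier results of these data known. The text names all members, all genes of the partner and Notch lists, up to 4 called genes of each other list per comparison with the largest changes (others are named for a window or a role, after their values were seen), and the 6 highest and 3 lowest r with MYC. Some genes of the lists were not analysed here. Promoter sequences are RefSeq's. Figures were drawn with matplotlib 3.10.9. Alternatives tried were median centring, quantile normalization, a filter on dim genes, other probe set choices, fits of the compared groups alone, eBayes with trend, and leaving out each array.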

Additional observations from a re-analysis of the deposited data

Results flagged for a closer look

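The effect of A13 over IgG exceeded that of JAG1 beads over Fc beads for MYC, by 0.529 ± 0.102 (1.33 against 0.805; limma adjusted p = 0.0419), and for NRARP, by 0.893 ± 0.0961 (1.90 against 1.01; limma adjusted p = 0.000213). Both were singled out because the test of the difference itself passed. For MYC the call was lost without any of 11 of the 12 arrays of these groups, one at a time, and under other settings given above.

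The DAPT effect differed between the antagonism and agonism experiments for 9 genes of the lists, also by the test of the difference, with every limma adjusted p under 0.05. CDK9 differed by -0.8 (-0.581 in the antagonism experiment, 0.219 in the agonism experiment). SLC7A5 differed by -0.705 (-0.717 and -0.0121), HK2 by -0.512 (0.041 and 0.553), and ITGA6 by -0.486 (0.0844 and 0.571). GSK3B differed by -0.423 (-0.128 and 0.295), CLU by -0.4 (0.132 and 0.532), CDKN1A by -0.383 (0.419 and 0.802), and PIM1 by -0.325 (-0.27 and 0.055). NDRG2 differed by 0.311 (0.334 and 0.0231). In a fit of the compared groups alone none of the 9 was called. With 1 array left out, the call in the cofactor list was lost without DAPT array 1 of the antagonism experiment or without DMSO array 1 or 3 or DAPT array 3 of the agonism experiment. The 2 calls in the turnover list went to 0 without those arrays and without control array 1 or DAPT array 2 of the antagonism experiment. The 4 in the repressed list went to 0 without DAPT array 2 of the antagonism experiment or DMSO array 3 or DAPT array 3 of the agonism experiment, and the 2 in the activated list to 1 in 7 of 12 such fits. Over all genes 6.12% (1211 genes) were called for this difference, with a range of 326 to 2828 genes when 1 array was left out, and the experiments differed in seeding density, DAPT schedule and control, whose parts were not tested. No group had enough arrays for a test of single arrays that stand apart.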

How the results depend on the processing

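MYC kept its direction under every alternative run for the comparisons in which it was called, but several alternatives could not change it. MYC has 1 probe set, so other probe set choices read the same values or none. Fits of the compared groups alone, the filter on dim genes and eBayes with trend leave the change itself as it was. Only the rescaled values and the arrays left out could alter the change. No paired analysis was possible because the labels give no replicate numbers. With arrays left out one at a time, the MYC change lay between -1.42 and -1.27 for DAPT against control, -1.23 and -1.08 for A4 against control, -1.27 and -1.14 for DAPT against DMSO, 1.38 and 1.52 for IgG against DAPT, 0.177 and 0.311 for IgG against DMSO, and 0.461 and 0.594 for the difference of agonist effects (limma adjusted p from 0.0355 to 0.132). The number of members called then ranged from 0 to 1 for A4, 2 to 4 for IgG against DAPT, 3 to 5 for IgG against DMSO, 1 to 2 for JAG1 against Fc and for Fc against IgG, and 0 to 1 for each difference. Fitting only the compared groups left MYC uncalled for A4 (-1.15), IgG against DMSO (0.242), Fc against IgG (0.441) and the agonist difference (0.529), where it was also uncalled under median centring (0.548), with the median of probe sets (0.529) and with every probe set in the fit (0.529). Members called in such fits of the groups alone were 0 for A4, Fc against IgG and the agonist difference, 3 for IgG against DAPT and against DMSO, and 1 for JAG1 against Fc. Without _x_at and _s_at probe sets MYC and MXD3 have no value, and members called were 0 for DAPT against control, A4, JAG1 against Fc, Fc against IgG and the agonist difference, 1 for DAPT against DMSO, 3 for IgG against DAPT, 2 for IgG against DMSO and 3 for A13 against DMSO. With the median of probe sets they were 1 for DAPT against DMSO, 2 for IgG against DAPT and for IgG against DMSO, and 0 for the agonist difference. Under median centring and with every probe set they were 1 for JAG1 against Fc and 0 for the agonist difference. Over genes above the median level, and with a trended, robust eBayes, they were 2 for Fc against IgG and 1 for the difference of DAPT effects. Signs turned for MAX against DMSO, to -0.205 (IgG) and -0.383 (A13) without those probe sets and to -0.148 and -0.143 with the median, and for MLX with IgG, to 0.0588 without them; the setting replaces the probe set read. Over all genes, DAPT against control called 70, but 1198 without control array 2, 11 to 35 without any other array, 169 after quantile normalization, 261 above the median level, 41 without _x_at and _s_at probe sets, 18 in a fit of those groups alone and 306 with a trended, robust eBayes. A4 called 20, but 96 without control array 2 and 0 without either A4 array. With 1 array left out, the all-gene counts ranged from 2585 to 4975 for DAPT against DMSO (4089 with all arrays), 1054 to 1793 for IgG against DAPT (1932), 897 to 1447 for JAG1 against Fc (1604) and 10 to 28 for the agonist difference (36). Signal over background was not available to set a limit on dim genes.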
